A study of Mus musculus with 2 samples.

Results

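The genes described here are the mouse Toll-like receptors, NOD-like receptors and C-type lectin receptors of the Clec4 and Clec7 families, together with their adaptors, co-receptors and proximal kinases. They were chosen by gene symbol: Tlr with a number, Nlrp with a number (Nlrp5 left out), Clec4 or Clec7 with a letter, and a fixed set of NOD, NAIP, IRAK, adaptor and co-receptor genes. The symbols matched 63 genes, the rule itself uses no measured value, and 62 of them were among the 23411 genes with a line in both tables. Of these, 46 reached a mean of 1 CPM over both libraries (read counts scaled to library size), the minimum for a comparison, which 17441 genes of the series passed.

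The series title names Sirt1 in central tolerance brought about by Aire. B6 mice, with no stated allele or treatment, gave medullary thymic epithelial cells (mTEC), which were sorted from thymus into MHC-II high and MHC-II low cells, both from 1 pool of 3 mice. Each group was 1 poly-A library from about 100 ng of total RNA, made with a kit that does not keep strand, 15 PCR cycles and reads of 100 bases from 2 ends. Reads on genes came to 138368535 in the MHC-II high and 56077479 in the MHC-II low library. There is thus no replicate check and no p-value: each difference below lies between 2 libraries of pooled mice, and its 95% interval (exact, Clopper-Pearson, from the reads) covers counting error only, since PCR reads without molecular identifiers are not independent molecules. In such bulk samples fewer cells of a type and less RNA per cell cannot be told apart.

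Pattern receptors are germ-line encoded proteins that recognise conserved microbial or danger-associated molecules. Toll-like receptors sense lipids and proteins at the cell surface and nucleic acids in endosomes, and signal through the adaptors Myd88 and Ticam1 and the IRAK kinases to NF-kB and interferon regulatory factors. NOD-like receptors act in the cytosol, where some assemble inflammasomes that activate caspase-1, and several C-type lectins bind microbial sugars and glycolipids. Much of the known biology of these receptors comes from myeloid cells, although epithelial cells also use them, and in the thymic medulla Toll-like receptor signalling in epithelial cells has been tied to chemokine production.

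Genes were called higher or lower where the interval of the ratio lay wholly beyond 2-fold. By this rule the MHC-II high library had higher values for 13 of the 46 genes, against 16.4% of all genes compared, and lower values for 6, against 9.25% of all genes. The remaining 27 were within the rule. The median log2 ratio of the 46 was 0.37, beside 0.11 over all genes compared, and 29 of the 46 lay above 0, beside 55.0% of all genes. These counts describe genes that passed the minimum, and a few passed only through the library in which they were high: Nlrp14, Tlr8, Nlrp4f and Clec4g were under 1 CPM in the MHC-II low library, and Nlrp12 and Nlrc3 were under 1 CPM in the MHC-II high library. The split depended on the scaling. With the totals that underlie the RPKM values, 20 of 40 genes were higher, beside 45.2% of all genes compared. Of the 40, 3 were lower, beside 2.94% of all genes, while the median of all genes moved to 1.0. That scaling gave 87.0% of the calls among these genes, and 93.9% among all genes, as higher, against 68.4% and 64.0% with the scaling used here. Of the 19 genes called, 13 kept their call under every scaling tried. The exceptions are named beside their values: 4 lost the call under a scaling, and Nlrp14 and Nlrp12 fell under the minimum with the RPKM totals.

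**Figure D1:**
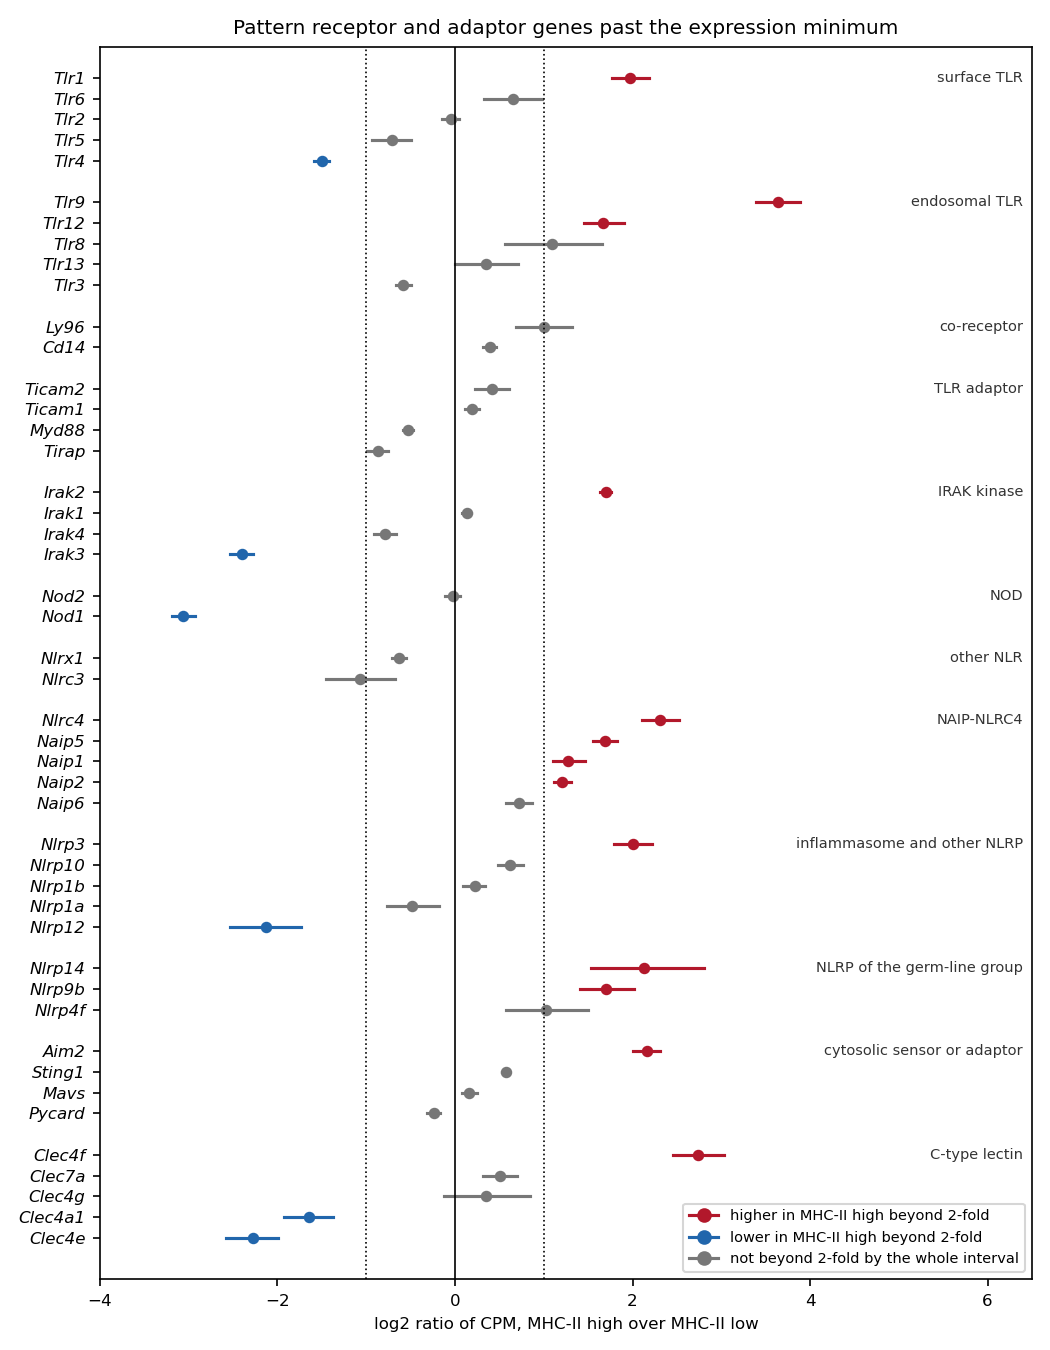
Log2 ratio of CPM, MHC-II high over MHC-II low, of the 46 genes past the minimum, grouped by role; bars are 95% counting intervals and dotted lines mark 2-fold. Tlr9 stands farthest to the right and Nod1 farthest to the left, and the genes of the NAIP-NLRC4 group all lie to the right of 0.

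The start-site regions of the genes at both ends of this range are shown to let their base composition be seen beside the ratios. They are the 3 genes with the highest lower limit of the ratio (Tlr9, Clec4f and Nlrc4) and the 3 with the lowest upper limit (Nod1, Irak3 and Clec4e). Each window runs from 250 bases before to 50 bases after the start of the gene in RefSeq, build GRCm38.p6, written 5′ to 3′ on the strand of the gene, with every CpG dinucleotide in capitals.
Tlr9 (chr9:106222348-106222647, plus strand): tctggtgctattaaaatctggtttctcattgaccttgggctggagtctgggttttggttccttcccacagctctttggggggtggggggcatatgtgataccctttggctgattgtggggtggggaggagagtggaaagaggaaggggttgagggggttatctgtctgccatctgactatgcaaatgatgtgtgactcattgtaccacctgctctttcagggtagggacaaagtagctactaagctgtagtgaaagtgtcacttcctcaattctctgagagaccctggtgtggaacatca
Clec4f (chr6:83656067-83656366, minus strand): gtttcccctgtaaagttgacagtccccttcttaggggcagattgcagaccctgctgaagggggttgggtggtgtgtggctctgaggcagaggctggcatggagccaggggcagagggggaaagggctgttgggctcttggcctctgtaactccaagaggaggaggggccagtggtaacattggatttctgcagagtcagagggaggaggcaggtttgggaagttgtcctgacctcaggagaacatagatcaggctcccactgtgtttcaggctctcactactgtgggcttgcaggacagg
Nlrc4 (chr17:74459059-74459358, minus strand): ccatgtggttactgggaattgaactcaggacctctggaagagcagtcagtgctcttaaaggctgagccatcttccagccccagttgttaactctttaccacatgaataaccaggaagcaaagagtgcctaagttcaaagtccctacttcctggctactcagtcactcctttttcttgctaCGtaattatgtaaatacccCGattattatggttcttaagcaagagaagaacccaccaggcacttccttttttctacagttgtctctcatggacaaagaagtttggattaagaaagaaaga
Nod1 (chr6:54972563-54972862, minus strand): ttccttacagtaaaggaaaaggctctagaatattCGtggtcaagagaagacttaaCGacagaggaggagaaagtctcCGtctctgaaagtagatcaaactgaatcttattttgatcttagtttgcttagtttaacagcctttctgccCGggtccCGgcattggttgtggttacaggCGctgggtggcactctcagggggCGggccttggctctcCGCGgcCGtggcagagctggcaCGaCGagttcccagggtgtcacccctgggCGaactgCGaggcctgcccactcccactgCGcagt
Irak3 (chr10:120201548-120201847, minus strand): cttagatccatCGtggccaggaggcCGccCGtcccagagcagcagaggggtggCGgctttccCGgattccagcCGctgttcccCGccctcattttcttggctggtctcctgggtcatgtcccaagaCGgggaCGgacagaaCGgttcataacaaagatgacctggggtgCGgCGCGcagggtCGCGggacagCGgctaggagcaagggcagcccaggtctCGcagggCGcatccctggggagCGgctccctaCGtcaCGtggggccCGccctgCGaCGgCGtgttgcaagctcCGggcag
Clec4e (chr6:123289822-123290121, minus strand): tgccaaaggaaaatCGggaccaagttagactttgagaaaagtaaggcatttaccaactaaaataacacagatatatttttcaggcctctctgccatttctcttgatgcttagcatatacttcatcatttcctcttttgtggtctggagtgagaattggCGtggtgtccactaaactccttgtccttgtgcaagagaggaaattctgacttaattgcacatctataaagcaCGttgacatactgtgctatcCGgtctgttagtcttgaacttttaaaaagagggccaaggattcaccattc
The windows of Tlr9 and Clec4f hold 0 CpG and that of Nlrc4 holds 2, whereas those of Nod1 and Irak3 hold 15 and 26, and that of Clec4e holds 4.

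Among the endosomal receptors, Tlr9, which senses unmethylated CpG DNA, differed most. It had 4801 reads (32.7 CPM) in the MHC-II high library and 139 reads (2.63 CPM) in the MHC-II low library, a 12.5-fold higher value (interval 10.5 to 14.8). Its level per transcript length was 9.43 CPM per kilobase in the MHC-II high library, at percentile 56.5 of the genes compared, and 0.757 CPM per kilobase in the MHC-II low library, at percentile 12.3. Tlr9 thus stood near the middle of the expressed genes in one fraction and near the bottom in the other.

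Tlr12, a mouse receptor for the profilin of apicomplexan parasites, had 11.3 CPM in the MHC-II high and 3.54 CPM in the MHC-II low library, 3.19-fold higher (interval 2.74 to 3.73). The other endosomal receptors did not pass the 2-fold rule. Tlr3, the receptor for double-stranded RNA, had 25.1 CPM in the MHC-II high library and 37.6 CPM in the MHC-II low library, a ratio of 0.668 (interval 0.632 to 0.705), which turned above 1 with the RPKM totals. Tlr8, a receptor for RNA degradation products, had 1.37 CPM in the MHC-II high and 0.643 CPM in the MHC-II low library, and its interval of 1.48 to 3.16 was wide. Tlr13, which recognises bacterial ribosomal RNA in mice, had 2.04 CPM in the MHC-II high and 1.61 CPM in the MHC-II low library, with an interval that included 1. Tlr7, the sensor of single-stranded RNA, and Tlr11, the partner of Tlr12 in profilin sensing, were under the minimum, with 89 and 41 reads in the MHC-II high and 24 and 64 reads in the MHC-II low library.

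Plasmacytoid dendritic cells and B cells are known for Tlr9 and Tlr7, so their markers were read beside these values. The counts are to be read against the 16.4% of all genes that were higher. Of 3 plasmacytoid dendritic cell markers, 2 passed the minimum and 1 was higher, with summed levels of 39.7 CPM in the MHC-II high and 6.54 CPM in the MHC-II low library. Nearly all of that sum was Pld4, at 37.5 CPM in the MHC-II high and 4.82 CPM in the MHC-II low library, whereas Siglech, the defining surface marker, was at 0.879 CPM in the MHC-II high and 1.02 CPM in the MHC-II low library. Of 5 B cell markers, 4 passed and 2 were higher, with summed levels of 31.3 CPM in the MHC-II high and 23.1 CPM in the MHC-II low library. Most of these sums was Cd79b, within the rule, at 20.8 CPM in the MHC-II high and 19.4 CPM in the MHC-II low library. Among the higher B cell markers, Ms4a1 passed only through the MHC-II high library. No marker of either list was at 0 reads, and the part of such cells in the Tlr9 ratio was not tested.

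The surface receptors were divided. Tlr1, which pairs with Tlr2 to bind triacylated lipopeptides, had 15.5 CPM in the MHC-II high and 3.93 CPM in the MHC-II low library, 3.93-fold higher (interval 3.41 to 4.55). Tlr4, the receptor for lipopolysaccharide, had 15.2 CPM in the MHC-II high and 43 CPM in the MHC-II low library. It was lower in the MHC-II high library by 2.83-fold (for every lower gene the fold is MHC-II low over MHC-II high; interval 2.67 to 3.01), and this call was lost with the RPKM totals, where its log2 ratio was −0.62. Per length, Tlr2 had the highest level of the surface receptors in the MHC-II high library, at 6.9 CPM per kilobase, and Tlr4 in the MHC-II low library, at 11.2 CPM per kilobase.

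Tlr2, the shared partner in lipopeptide sensing, had 19.7 CPM in the MHC-II high and 20.5 CPM in the MHC-II low library, with an interval of 0.898 to 1.03 around a ratio of 0.964, and it turned above 1 with unscaled totals and with the RPKM totals. Tlr6, which pairs with Tlr2 for diacylated lipopeptides, had 2.91 CPM in the MHC-II high and 1.85 CPM in the MHC-II low library. Tlr5, the flagellin receptor, had 3.39 CPM in the MHC-II high and 5.56 CPM in the MHC-II low library, a ratio of 0.609 (interval 0.527 to 0.706) that turned above 1 with the RPKM totals. The interval of Tlr5 and that of Tlr6 (1.26 to 1.98) each left out 1 but did not lie beyond 2-fold. Tlr1 and Tlr6 share 8.85% and 7.24% of their 100-base stretches with each other, so reads of the pair can be counted on either gene.

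The co-receptors of Tlr4 did not pass the 2-fold rule. Cd14, which hands lipopolysaccharide to the receptor complex, had 53.8 CPM in the MHC-II high and 41 CPM in the MHC-II low library, a ratio of 1.31 (interval 1.25 to 1.38). Ly96 (MD-2), which binds the lipid itself, had 3.82 CPM in the MHC-II high and 1.91 CPM in the MHC-II low library, a ratio of 2 with an interval of 1.62 to 2.5. Per length, Cd14 stood at 35.9 CPM per kilobase in the MHC-II high and 27.4 CPM per kilobase in the MHC-II low library, the third highest of the 46 genes in both. Tlr4 stood at 3.95 CPM per kilobase in the MHC-II high and 11.2 CPM per kilobase in the MHC-II low library, so that receptor and co-receptor lay farther apart in the MHC-II high library.

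None of the 4 adaptors passed the 2-fold rule. Myd88, the adaptor shared by most Toll-like receptors, had 42.7 CPM in the MHC-II high and 61.7 CPM in the MHC-II low library, a ratio of 0.692 (interval 0.663 to 0.722). Without strand, reads in the 223 exon bases that Myd88 shares with Acaa1a on the other strand cannot be assigned. Tirap, which bridges Myd88 to Tlr2 and Tlr4, had 9.68 CPM in the MHC-II high and 17.6 CPM in the MHC-II low library, a ratio of 0.549 (interval 0.505 to 0.597). Both of these ratios turned above 1 with the RPKM totals. Ticam1 (TRIF), the adaptor of Tlr3 and of endosomal Tlr4, had 38.5 CPM in the MHC-II high and 33.8 CPM in the MHC-II low library. Ticam2 (TRAM), which bridges Ticam1 to Tlr4, had 7.06 CPM in the MHC-II high and 5.29 CPM in the MHC-II low library, and its value is uncertain because 18% of its 100-base stretches also belong to Tmed7. Summed over the 4 adaptors, the level was 98 CPM in the MHC-II high and 118 CPM in the MHC-II low library.

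The IRAK kinases, which act directly downstream of Myd88, split in opposite directions. Irak2, which sustains signalling, had 130.5 CPM in the MHC-II high and 40.3 CPM in the MHC-II low library, 3.24-fold higher (interval 3.1 to 3.39). Irak3 (IRAK-M), which lacks kinase activity and is known as a brake in macrophages, had 5.25 CPM in the MHC-II high and 27.7 CPM in the MHC-II low library, lower by 5.27-fold (interval 4.83 to 5.76). These were the most and the least abundant of the 4 per length in the MHC-II high library.

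Irak1 had 97 CPM in the MHC-II high and 88.7 CPM in the MHC-II low library, a ratio of 1.09 (interval 1.06 to 1.13). Irak4, the first kinase recruited, had 10.1 CPM in the MHC-II high and 17.5 CPM in the MHC-II low library, a ratio of 0.577 (interval 0.531 to 0.627) that turned above 1 with the RPKM totals. Per length, Irak2 stood at 40.8 CPM per kilobase in the MHC-II high library (percentile 89.6) and 12.6 CPM per kilobase in the MHC-II low library (percentile 66.6). Irak3 stood at 1.77 CPM per kilobase in the MHC-II high and 9.32 CPM per kilobase in the MHC-II low library. Without strand, reads in the 122 exon bases that Irak3 shares with Tmbim4 on the other strand, and in the 170 that Irak4 shares with Twf1, cannot be assigned.

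**Figure D2:**
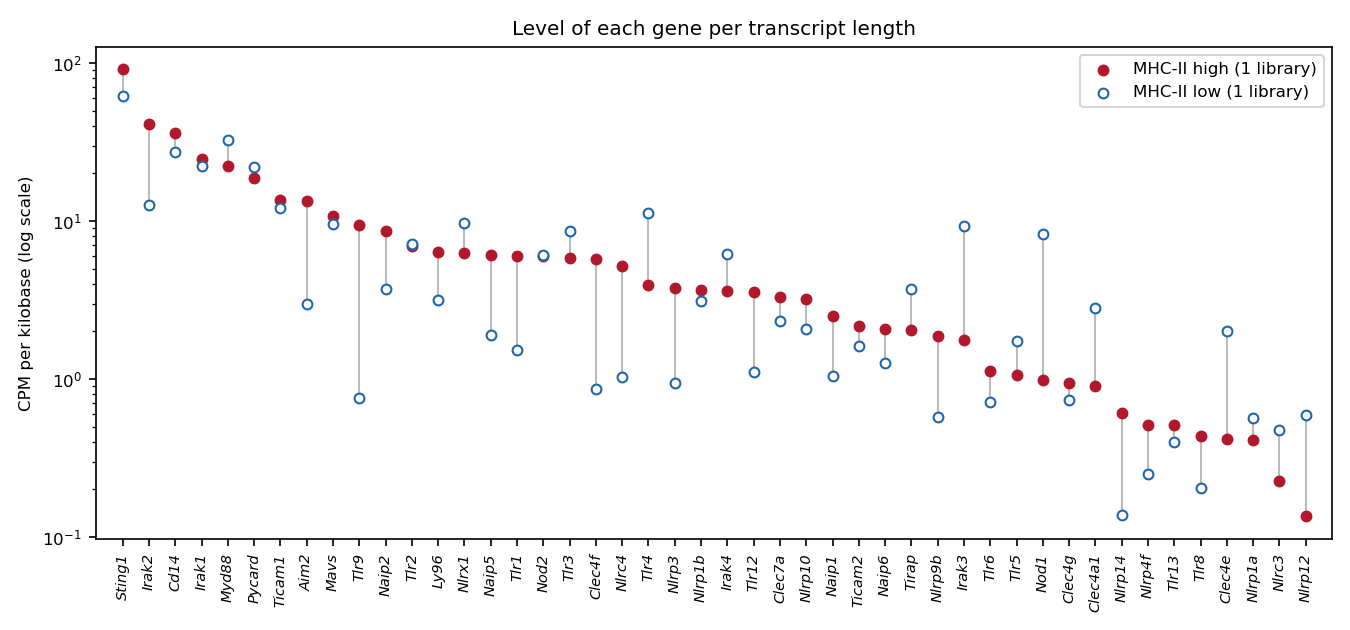
Level of each of the 46 genes in CPM per kilobase of transcript (log scale), MHC-II high filled and MHC-II low open, 1 library each, ordered by the MHC-II high level. Sting1 leads in both libraries at 91.1 in MHC-II high and 61.5 in MHC-II low, and the long connecting lines belong to genes such as Tlr9, Nod1, Irak3 and Aim2.

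Of the NOD receptors, Nod1, which senses diaminopimelic acid-containing peptidoglycan, was the lowest of the 46 genes in ratio. It had 627 reads (4.27 CPM) in the MHC-II high library and 1881 reads (35.6 CPM) in the MHC-II low library, lower by 8.32-fold (interval 7.6 to 9.12). Nod2, which senses muramyl dipeptide and shares the kinase Ripk2 with Nod1, had 27.7 CPM in the MHC-II high and 28.1 CPM in the MHC-II low library, with an interval of 0.928 to 1.05 around a ratio of 0.985 that turned above 1 with unscaled totals and with the RPKM totals. Per length the order of the pair differed: Nod1 stood at 0.989 and Nod2 at 5.99 CPM per kilobase in the MHC-II high library, against 8.23 for Nod1 and 6.09 for Nod2 in the MHC-II low library.

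Nlrx1 and Nlrc3 were within the rule. Nlrx1, which sits at mitochondria, had 23.1 CPM in the MHC-II high and 35.8 CPM in the MHC-II low library, a ratio of 0.645 (interval 0.609 to 0.683) that turned above 1 with the RPKM totals. Nlrc3, known as a brake on Toll-like receptor and STING signalling, had 0.92 CPM in the MHC-II high and 1.93 CPM in the MHC-II low library, a ratio of 0.477 with an interval of 0.366 to 0.623.

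The NAIP-NLRC4 group, which senses flagellin and type III secretion proteins, was the group with the most genes called: 4 of 5 were higher, against 16.4% of all genes, and 2 of those calls, Naip1 and Naip2, depended on the scaling. Nlrc4, the adaptor on which the NAIP sensors converge, had 19.8 CPM in the MHC-II high and 3.97 CPM in the MHC-II low library, 4.98-fold higher (interval 4.32 to 5.75). Naip5, a flagellin sensor, had 32.1 CPM in the MHC-II high and 9.98 CPM in the MHC-II low library, 3.22-fold higher (interval 2.94 to 3.53). The adaptor and its flagellin sensor were thus both several-fold higher.

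Naip1, the sensor of the secretion needle protein, had 13.5 CPM in the MHC-II high and 5.58 CPM in the MHC-II low library, 2.42-fold higher (interval 2.14 to 2.74). Naip2, the sensor of the inner rod protein, had 41.8 CPM in the MHC-II high and 18 CPM in the MHC-II low library, 2.32-fold higher (interval 2.17 to 2.49). Both of these calls were lost when TMM scaling was computed from genes past the minimum alone, a setting chosen after seeing the data, with log2 ratios of 1.16 for Naip1 and 1.10 for Naip2. Naip6, a further flagellin sensor, had 13.9 CPM in the MHC-II high and 8.45 CPM in the MHC-II low library, a ratio of 1.65 (interval 1.49 to 1.83). The 4 NAIP genes are near-identical copies in places: 16.2% of the 100-base stretches of Naip5, 13.6% of Naip1, 6.26% of Naip6 and 4.55% of Naip2 also occur in another gene, mostly another NAIP gene, so reads may have been split between them or counted on several. Nlrc4 shares no such stretch with another gene.

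Of the NLRP inflammasome genes, Nlrp3, which responds to membrane damage and ion flux, had 15.2 CPM in the MHC-II high and 3.78 CPM in the MHC-II low library, 4.01-fold higher (interval 3.47 to 4.66). Nlrp12, known as a brake on NF-kB in myeloid cells, had 0.586 CPM in the MHC-II high and 2.57 CPM in the MHC-II low library, lower by 4.39-fold (interval 3.32 to 5.81). Nlrp12 rests on 86 reads in the MHC-II high and 136 in the MHC-II low library, fell under the minimum with the RPKM totals, and miRNA genes of the other strand lie within its exons, so without strand its reads are uncertain. Nlrp1b, the mouse sensor of anthrax lethal factor, had 15 CPM in the MHC-II high and 12.9 CPM in the MHC-II low library. Its relative Nlrp1a had 1.96 CPM in the MHC-II high and 2.74 CPM in the MHC-II low library, a ratio of 0.716 that turned above 1 with the RPKM totals. Nlrp10, which lacks the leucine-rich repeats of its family, had 14.3 CPM in the MHC-II high and 9.3 CPM in the MHC-II low library, a ratio of 1.54 (interval 1.4 to 1.7).

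Aim2, the cytosolic DNA sensor that assembles its own inflammasome, had 33.8 CPM in the MHC-II high and 7.58 CPM in the MHC-II low library, 4.46-fold higher (interval 4.03 to 4.95). Pycard (ASC), the adaptor that joins Aim2 and Nlrp3 to caspase-1, did not move with them: it had 39.8 CPM in the MHC-II high and 47 CPM in the MHC-II low library, a ratio of 0.846 (interval 0.808 to 0.888) that turned above 1 with the RPKM totals. Sting1, the adaptor of cyclic dinucleotide sensing listed by the older symbol Tmem173 in the gene set, was the most abundant of the 46 genes per length in both libraries. It had 209.6 CPM in the MHC-II high and 142 CPM in the MHC-II low library, a ratio of 1.48 (interval 1.44 to 1.52), at percentiles 96.1 and 93.8 of the genes compared. Mavs, the mitochondrial adaptor of cytosolic RNA sensing, had 33.4 CPM in the MHC-II high and 29.8 CPM in the MHC-II low library. After Sting1, the highest levels per length in the MHC-II high library were Irak2 at 40.8, Cd14 at 35.9, Irak1 at 24.5 and Myd88 at 22.4 CPM per kilobase. In the MHC-II low library they were Myd88 at 32.4, Cd14 at 27.4, Irak1 at 22.4 and Pycard at 22 CPM per kilobase.

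A group of 10 NLRP genes known mainly from oocytes and early embryos had few reads, and 3 passed the minimum. Nlrp9b had 6.22 CPM in the MHC-II high and 1.91 CPM in the MHC-II low library, 3.26-fold higher (interval 2.65 to 4.04). Nlrp14 had 292 reads (1.99 CPM) in the MHC-II high and 24 reads (0.454 CPM) in the MHC-II low library, 4.39-fold higher (interval 2.89 to 6.96). Nlrp4f had 1.8 CPM in the MHC-II high and 0.889 CPM in the MHC-II low library, with an interval of 1.48 to 2.82. Since Nlrp14 and Nlrp4f passed only through the MHC-II high library, their direction was in part fixed by the minimum, and both fell under it with the RPKM totals. The 7 genes under it, among them Nlrp9a, Nlrp9c and Nlrp4a, had 0 to 115 reads in the MHC-II high and 0 to 59 in the MHC-II low library, and summed to 2.62 CPM in the MHC-II high and 3.89 CPM in the MHC-II low library. Nlrp4g had 0 reads in both libraries, which allows up to 0.0204 CPM in the MHC-II high and 0.0567 CPM in the MHC-II low library (3 reads). Oocyte markers, which include antigens that mTEC are known to transcribe, were higher for 5 of the 8 past the minimum, beside 16.4% of all genes. The 11 of the list summed to 137 CPM in the MHC-II high and 27.3 CPM in the MHC-II low library, with none at 0 reads. Zp2 and Ooep gave most of these sums. The other higher ones, Oosp1, Zp1 and Zp3, passed only through the MHC-II high library, so the minimum in part fixed their direction. The call of Zp1 was also lost under some of the scalings tried. Gdf9 (0.464) and, under the minimum, Bmp15 (0.847) and Figla (0.681) had ratios below 1.

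The lectins were mostly near the limit of detection, and 5 of 12 passed the minimum. Clec4f, known as a marker of Kupffer cells and a receptor for galactose-type sugars, had 2035 reads (13.9 CPM) in the MHC-II high and 110 reads (2.08 CPM) in the MHC-II low library, 6.67-fold higher (interval 5.5 to 8.16). Clec4e (Mincle), which binds mycobacterial cord factor, had 1.04 CPM in the MHC-II high and 5.07 CPM in the MHC-II low library, lower by 4.86-fold (interval 3.97 to 5.97). Clec4a1, of the dendritic cell immunoreceptor cluster, had 1.4 CPM in the MHC-II high and 4.41 CPM in the MHC-II low library, lower by 3.14-fold (interval 2.59 to 3.8), a call lost with the RPKM totals, where its log2 ratio was −0.77. Clec4f was thus the only one of the 5 counted as higher.

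Clec7a (dectin-1), the receptor for fungal beta-glucan, had 7.51 CPM in the MHC-II high and 5.27 CPM in the MHC-II low library, a ratio of 1.42 (interval 1.25 to 1.63). Clec4g (LSECtin), known from sinusoidal endothelium, had 1.16 CPM in the MHC-II high and 0.908 CPM in the MHC-II low library, with an interval of 0.922 to 1.8 that included 1. The 7 lectins under the minimum were Clec4a2, Clec4a3, Clec4a4, Clec4b1, Clec4b2, Clec4d and Clec4n (dectin-2). They had 2 to 49 reads in the MHC-II high and 6 to 56 reads in the MHC-II low library, and summed to 1.02 CPM in the MHC-II high and 2.95 CPM in the MHC-II low library. In all, 60 of the 62 genes had more than 3 reads in the MHC-II high library and 61 in the MHC-II low library.

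Myeloid cells are a known source of many of these receptors, and markers of several cell types were called here too, each count to be read against 16.4% higher and 9.25% lower of all genes. Of 9 macrophage and monocyte markers, 8 passed the minimum and 5 were higher, with summed levels of 521 CPM in the MHC-II high and 145 CPM in the MHC-II low library, of which Lyz2 gave 377 CPM in the MHC-II high and 71.1 CPM in the MHC-II low library. Among the higher ones, C1qc lost its call with TMM from genes past the minimum alone. The ratio of Cx3cr1 was 0.991. Fcgr1, under the minimum, had 30 reads in the MHC-II high and 66 in the MHC-II low library, a ratio of 0.164. Dendritic cell markers summed to 43.9 CPM in the MHC-II high and 19.7 CPM in the MHC-II low library, with 3 of the 6 past the minimum higher, from a list of 7. Of these sums Zbtb46, within the rule, gave 22.2 CPM in the MHC-II high and 10.8 CPM in the MHC-II low library. The ratios of Itgax (0.648) and Clec9a (0.555) were below 1. Neutrophil markers summed to 127 CPM in the MHC-II high and 25 CPM in the MHC-II low library, with 2 of 4 higher, from a list of 5. In the MHC-II high library nearly all of that sum was S100a8 and S100a9, at 70 and 53.1 CPM, against 7.26 and 13.4 CPM in the MHC-II low library. The ratios of Csf3r (0.959), Cxcr2 (0.804) and, under the minimum, Elane (0.459) were below 1. All 7 endothelial markers were lower, with sums of 66.9 CPM in the MHC-II high and 450.0 CPM in the MHC-II low library. Among them, Emcn passed the minimum only through the MHC-II low library, and Tek lost its call with unscaled totals and with the RPKM totals. Fibroblast markers were lower for 5 of 7, with sums of 198 CPM in the MHC-II high and 1044 CPM in the MHC-II low library. T cell markers (1 of 8 higher and 2 lower, from a list of 9) summed to 49.1 CPM in the MHC-II high and 66.3 CPM in the MHC-II low library. Erythroid markers (2 of 4 lower, from a list of 5) summed to 68.9 CPM in the MHC-II high and 2059.9 CPM in the MHC-II low library. Nearly all of the MHC-II low sum was Hba-a1 and Hbb-bs, at 1289 and 741 CPM, against 34.2 and 14.3 CPM in the MHC-II high library. Alas2 (ratio 0.561) and Slc4a1 (1.25) were within the rule. The 7 epithelial markers, which check the label, summed to 5925 CPM in the MHC-II high and 12849 CPM in the MHC-II low library, with 1 higher and 2 lower. The higher one was Aire, at 595 CPM in the MHC-II high and 20.2 CPM in the MHC-II low library. The lower ones were Krt5, at 800.1 CPM in the MHC-II high and 5628 CPM in the MHC-II low library, and Krt14, at 306 CPM in the MHC-II high and 2214 CPM in the MHC-II low library. With the RPKM totals 7 of 7 macrophage and monocyte markers past the minimum were higher, and of the T cell markers 2 were higher and 0 lower. With those totals 45.2% of all genes compared were higher and 2.94% lower. No marker of any list was at 0 reads in either library, and the part of any of these cell types in the receptor ratios was not tested.

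**Figure D3:**
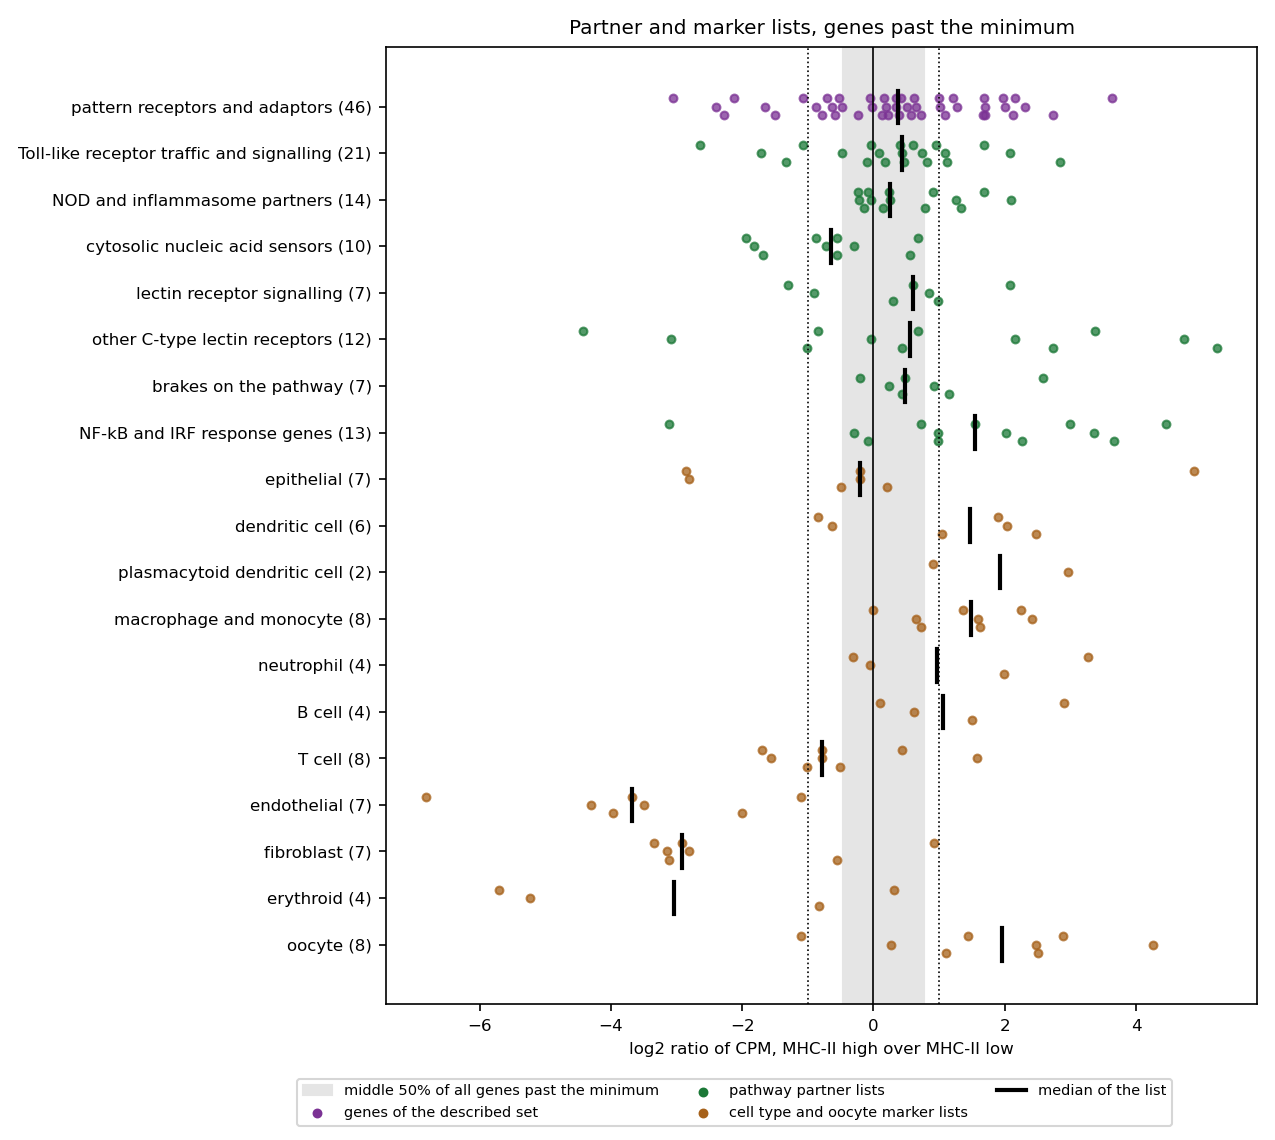
Log2 ratio of CPM, MHC-II high over MHC-II low, for the pattern receptors and for each partner and marker list (genes past the minimum, numbers in parentheses), with the list median as a black bar and the middle 50% of all genes shaded. Response genes have the highest median of the partner lists (1.54) and cytosolic nucleic acid sensors the lowest (−0.64, or 0.24 with the RPKM totals), while endothelial and fibroblast markers lie far to the left.

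The partners of the receptors gave the following counts, each set against the 16.4% of all genes that were higher and the 9.25% that were lower. Counts with the RPKM totals, here and in the following lists, are to be read against 45.2% higher and 2.94% lower. Of 21 genes of Toll-like receptor traffic and signalling, 5 were higher and 4 lower, while with the RPKM totals 12 of 20 were higher and 1 lower. Among the higher genes, Ly86 passed the minimum only through the MHC-II high library. Hsp90b1 (gp96), the chaperone most Toll-like receptors need, had 1899.6 CPM in the MHC-II high and 873 CPM in the MHC-II low library, 2.18-fold higher (interval 2.16 to 2.2). Traf6, the ubiquitin ligase below the IRAK kinases, had 192 CPM in the MHC-II high and 59.7 CPM in the MHC-II low library, 3.21-fold higher (interval 3.1 to 3.33). Ikbkb, a kinase that releases NF-kB, had 157 CPM in the MHC-II high and 73.6 CPM in the MHC-II low library, 2.13-fold higher (interval 2.06 to 2.21). The calls of Hsp90b1 and Ikbkb were lost with TMM from genes past the minimum alone. Irf7, the interferon regulatory factor that acts below Tlr7 and Tlr9, had 86.3 CPM in the MHC-II high and 539.5 CPM in the MHC-II low library, lower by 6.25-fold (interval 6.12 to 6.38). Tlr9 and Irf7 therefore lay on opposite sides, but Irf5, a further interferon regulatory factor of the list, lay on the side of Tlr9. Irf5 had 94.4 CPM in the MHC-II high and 22.3 CPM in the MHC-II low library, 4.24-fold higher (interval 3.99 to 4.5). Irf3 was lower by 2.11-fold, a call lost with unscaled totals and with the RPKM totals.

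Of 14 NOD and inflammasome partners past the minimum, 4 were higher and 0 lower, while with the RPKM totals 7 of 13 were higher. Casp4, the caspase that binds cytosolic lipopolysaccharide, had 199 CPM in the MHC-II high and 47 CPM in the MHC-II low library, 4.24-fold higher (interval 4.07 to 4.42). Casp1, the effector of the inflammasomes, had 136 CPM in the MHC-II high and 56.8 CPM in the MHC-II low library, 2.4-fold higher (interval 2.31 to 2.49). Caspase-8 (Casp8) had 53.9 CPM in the MHC-II high and 21.5 CPM in the MHC-II low library, 2.51-fold higher. The fourth gene, Ciita, is the NOD-like protein that drives MHC class II transcription, and it had 294 CPM in the MHC-II high and 90.9 CPM in the MHC-II low library. Casp1 and Casp4 were thus higher, as were Nlrc4, Aim2 and Nlrp3, while the joining adaptor Pycard was not. The other 10 partners were within the rule, among them Gsdmd (ratio 0.974), Nek7 (0.858), Il1b (0.944) and Il18 (1.19). Of the NLRP inflammasome genes given above, Nlrp1a, Nlrp1b and Nlrp10 were within the rule and Nlrp12 was lower.

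Cytosolic nucleic acid sensors gave 0 higher and 3 lower of 10, with a median log2 ratio of −0.64 that turned to 0.24 with the RPKM totals, where 2 were higher and 1 lower. The RNA sensor Ddx58 (RIG-I) had 38 CPM in the MHC-II high and 146 CPM in the MHC-II low library, lower by 3.83-fold (interval 3.7 to 3.97). Its relative Dhx58 (LGP2) had 35.4 CPM in the MHC-II high and 114 CPM in the MHC-II low library, lower by 3.23-fold. Zbp1, a sensor of left-handed nucleic acid, had 48.8 CPM in the MHC-II high and 173 CPM in the MHC-II low library, lower by 3.54-fold. The calls of Dhx58 and Zbp1 were lost with the RPKM totals. The shared adaptors Sting1 and Mavs, given above, were within the rule.

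Lectin receptor signalling gave 1 higher and 1 lower of 7, while with the RPKM totals 5 were higher and 0 lower. Fcer1g, the signalling chain that Clec4e and related lectins use, had 11.7 CPM in the MHC-II high and 2.76 CPM in the MHC-II low library, 4.24-fold higher (interval 3.58 to 5.06), while Clec4e itself was lower. The phosphatase Ptpn6 (SHP-1), which inhibitory lectins recruit, had 72.6 CPM in the MHC-II high and 178 CPM in the MHC-II low library, lower by 2.46-fold, a call lost with the RPKM totals. Of 12 other C-type lectin receptors past the minimum, 5 were higher and 2 lower, while with the RPKM totals 5 of 9 were higher and 2 lower. Of the higher ones, Cd207, Clec5a and Clec1b were under 1 CPM in the MHC-II low library. Of the lower ones, Clec14a was under 1 CPM in the MHC-II high library. The direction of such genes was in part fixed by the minimum. Langerin (Cd207), known from Langerhans cells and some dendritic cells, had 1157 reads in the MHC-II high and 11 reads in the MHC-II low library, 37.9-fold higher (interval 21.1 to 76.2). The mannose receptor Mrc1 had 59.7 CPM in the MHC-II high and 8.9 CPM in the MHC-II low library, 6.7-fold higher. Clec12a had 6.76 CPM in the MHC-II high and 1.51 CPM in the MHC-II low library, 4.47-fold higher. Cd302 had 1.64 CPM in the MHC-II high and 13.9 CPM in the MHC-II low library, lower by 8.48-fold. The lectins outside the Clec4 and Clec7 families therefore also lay on both sides.

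Of 7 genes known as brakes on these pathways, 2 were higher and 0 lower, while with the RPKM totals 5 were higher. The deubiquitinase Otulin had 118 CPM in the MHC-II high and 52.9 CPM in the MHC-II low library, 2.22-fold higher, a call lost with TMM from genes past the minimum alone. Il1rl1 (ST2) had 14.3 CPM in the MHC-II high and 2.38 CPM in the MHC-II low library, 6.01-fold higher. Of 13 NF-kB and interferon response genes, 7 were higher and 1 lower, with a median log2 ratio of 1.54. With the RPKM totals 9 of 12 were higher and 1 lower. The lower gene was Il6, at 3.18 CPM in the MHC-II high and 27.4 CPM in the MHC-II low library, lower by 8.63-fold (interval 7.77 to 9.6). The ratios of Ccl2 (0.815) and Il1b (0.944) were also below 1. Among the higher genes, Ifnb1 passed the minimum only through the MHC-II high library. Nfkbia, the inhibitor that NF-kB itself induces, had 1602 CPM in the MHC-II high and 552 CPM in the MHC-II low library, 2.9-fold higher (interval 2.87 to 2.94). Ptgs2 (COX-2) had 1531 CPM in the MHC-II high and 120.2 CPM in the MHC-II low library, 12.7-fold higher (interval 12.4 to 13.1). The chemokine Cxcl2 had 273 CPM in the MHC-II high and 26.6 CPM in the MHC-II low library, 10.2-fold higher, and Cxcl1 had 203 CPM in the MHC-II high and 50 CPM in the MHC-II low library, 4.06-fold higher. These genes also respond to signals other than pattern receptors.

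The start-site windows of the receptors were poorer in CpG than those of other genes. RefSeq (GRCm38.p6) gave a window for 51 of the 62 genes and for 39 of the 46 past the minimum. The median CpG observed over expected was 0.277 over the 39, beside 0.703 over the 13440 genes past the minimum with a window, and the median GC content was 50% beside 59.3%. The 12 genes that were higher had a median CpG observed over expected of 0.218, the 5 that were lower 0.333 and the 22 within the rule 0.341. Tlr9, Clec4f, Naip2 and Nlrp1b held no CpG at all, and Irak1, Irak3, Tirap, Nod1 and Mavs were among the richest of the 39. Within this set, the genes richer in CpG thus included Irak2, at 0.623, which was higher, and Irak3 and Nod1, which were lower. Of these, Irak3 (0.767) lay above the median of all genes, while Irak2 and Nod1 (0.673) lay below it. The medians given here come with no test.

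**Figure D4:**
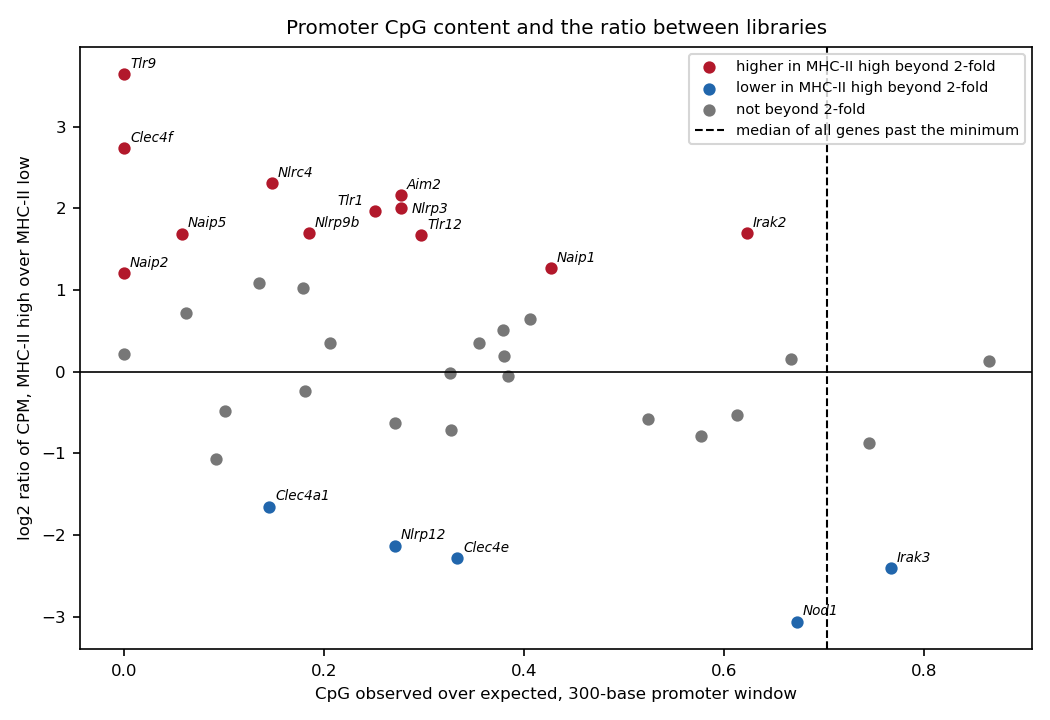
CpG observed over expected in the 300-base start-site window against the log2 ratio of CPM, MHC-II high over MHC-II low, for the 39 genes with a window and past the minimum; the dashed line is the median of all such genes of the series (0.703). Most of the genes lie left of that line, and among the named ones Irak3 lies right of it.

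Short letter patterns of known factors were searched on both strands of the windows. The NF-kB pattern GGANTTTCC occurred in 2 of the 39 windows, those of Myd88 and Tlr3 (5.13%, beside 1.31% of all genes past the minimum). The interferon response pattern AANNGAAA occurred in 15 (38.5%, beside 19%), among them Tlr2, Tlr3, Tlr6, Myd88 and Nod1. A stricter form with 10 letters occurred in 2, those of Myd88 and Tlr6 (5.13%, beside 3.04%). A form of the NF-kB pattern with 10 letters also occurred in 2, those of Tlr2 and Tlr3 (5.13%, beside 1.27%), so which windows matched depended on the letters chosen. The AP-1 pattern TGANTCA occurred in 2, those of Tlr9 and Nlrp4f (5.13%, beside 6.11%). The PU.1 pattern AGAGGAAG occurred in 5, those of Tlr9, Clec4a1, Nlrp1a, Nlrp1b and Tlr13 (12.8%, beside 4.54%). A match in a window is a description of letters and not a bound site. Of the windows printed above, that of Tlr9 carries an AP-1 and a PU.1 match, those of Nod1 and Clec4e carry 1 and 2 matches to the interferon pattern, and the other 3 carry none.

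The values hardly depended on which transcript stood for a gene. Of the 62 genes, 15 had several transcripts in both tables, and for 3 of them (Clec4a3, Clec4n and Nlrp1b) the log2 ratios of the transcripts differed by over 0.1, with at most 0.19 for Nlrp1b. In none of the 15 did the transcripts get different calls. Of the 62 genes, 37 share no 100-base stretch with another gene, and 5 share over 10% of their stretches: Ticam2, Naip5, Naip1, Nlrx1 and Pycard.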

How the data were processed

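Poly-A RNA was measured in 1 library of MHC-II high and 1 of MHC-II low mTEC. The submitters' processing notes name the build mm9, CASAVA, Bowtie 1.0.0 and bedtools; settings, annotation and whether mates were counted separately are not given in the sources used here. The deposited tables list RefSeq transcripts and give, per the file headers, their read counts, lengths and RPKM. The deposited RPKM values equalled the count per length and per 213854095 reads (MHC-II high) or 142330178 reads (MHC-II low), within a relative 4.4e-08, and served only to recover these totals.

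Stray lines (18 in the MHC-II high table and 36 in the MHC-II low table) were left out and 840 lines of further genomic copies were summed. Of 29920 accessions, 29800 were in both tables with the same length. Accessions in 1 table only (63 in the MHC-II high table and 24 in the MHC-II low table) or of differing length (33) were not compared. Symbols came from a RefSeq gene table (29352 accessions) or GENCODE (174), and 394 had none. Of several transcripts of a gene, the one with the most reads in all was used. Among genes past the minimum, 257 share both counts with another gene, which can mark near-identical copies. Of the genes described past the minimum this holds for Tlr8 alone, which shares no 100-base stretch with another gene.

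CPM used TMM-scaled totals over all genes (edgeR 4.0.16 in R 4.3.3), which were 146702906 (MHC-II high) and 52891649 (MHC-II low). Intervals and folds were computed in Python 3.11.15 with SciPy 1.17.1, and the procedure was tested on simulated data. Genes at 0 reads have a limit of 3 reads. Genes described are every member, and of each partner list up to 4 genes beyond 2-fold with the most reads. Some further list genes, such as Il6 and Irf5, were named to show where a list was mixed. The members, lists and rules were chosen with earlier results of these data known. Alternatives were other scalings, minimums, transcripts and treatments of lines in 1 table. Of the genes in the lists, Cd68, Ly6g, Ifi203, Tyrobp and Il12b were not compared here. Shared 100-base stretches and exon overlaps come from GENCODE transcripts of a later build than that of the authors, and start-site windows from RefSeq GRCm38.p6. The letter patterns searched in them were chosen after the data were seen.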

Additional observations from a re-analysis of the deposited data

Results flagged for a closer look

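Nlrp4e, a further NLRP gene known from oocytes, had 47 reads in the MHC-II low table, above the 3 reads that a count of 0 allows. The table of the MHC-II high library has no line for it, so it entered no comparison, and reading the missing line as 0 was tried only as an alternative.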

How the results depend on the processing

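With the totals that underlie the RPKM values, 20 of 40 genes were higher and 3 lower, and their median log2 ratio was 1.26, because every ratio moved up by the same factor and the minimum was applied to other totals. That scaling raised 8 genes past the rule (Cd14, Clec7a, Ly96, Naip6, Nlrp10, Sting1, Ticam2 and Tlr6), ended the calls of Tlr4 and Clec4a1, left Nlrp14 (higher) and Nlrp12 (lower) under the minimum, and turned 10 genes from below to above 0. With a mean CPM of at least 5 as the minimum, fewer genes were compared. Of 32 genes, 11 were higher and 3 lower, beside 14.2% and 8.89% of all genes. Unscaled totals, median-of-ratios size factors, totals without the most abundant genes, the longest transcript per gene and missing lines read as 0 each gave 13 higher and 6 lower. In these settings 16.2% to 19.8% of all genes were higher and 7.35% to 9.64% lower. With no minimum 13 of 61 were higher and 9 lower, beside 14% and 15.1% of all genes. TMM from genes past the minimum alone, chosen after seeing the data, gave 11 of 45 higher and 6 lower, beside 14.5% and 10.9% of all genes. Of the genes called, 10 of 13 higher and 3 of 6 lower ones kept the call under every scaling.

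Detection changed little: thinned to the depth of the MHC-II low library, 59 genes in the MHC-II high library had more than 3 reads, and with more than 10 reads asked for, 59 were detected in each library. No paired analysis was possible because each group had 1 library. Precision is limited by the 1 library per group, and for genes with few reads by depth, which was lower in the MHC-II low library.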
